A study of Mus musculus with 10 samples.

Results

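The genes described here are Acod1, which encodes the enzyme that makes itaconate, and 8 genes for enzymes of the tricarboxylic acid (TCA) cycle or its close relatives, Cs, Idh1, Idh2, Ogdh, Sdha, Sdhb, Fh1 and Mdh2. They were picked by name from the table of estimated counts with earlier results of these data known, by a rule that used no measured value. All 9 were found among 29700 rows left once circular RNAs were set aside, and all 9 passed the filter on low counts, which kept 12654 genes. The RNA came from peritoneal macrophages of C57BL/6 mice aged 8 weeks, collected on the third day after thioglycollate, an irritant that draws macrophages into the peritoneum. The 5 control cultures are labelled as untreated. The 5 ox-LDL cultures received LPS, a bacterial product, at 100 ng/ml and were exposed for 16 h to 100 µg/ml of ox-LDL, oxidized low-density lipoprotein. The design text can also be read as LPS for both groups. The labels were followed, so that the effects of LPS and ox-LDL cannot be told apart.

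In the TCA cycle, citrate synthase joins acetyl-CoA to oxaloacetate, citrate becomes isocitrate through cis-aconitate, and dehydrogenases carry the carbon through 2-oxoglutarate, succinate, fumarate and malate back to oxaloacetate. In activated macrophages the enzyme encoded by Acod1, also called Irg1, takes cis-aconitate out of the cycle and removes a carboxyl group to give itaconate. Itaconate inhibits succinate dehydrogenase and reacts with the Nrf2 repressor Keap1. A transcript level reports neither enzyme activity nor metabolite amounts, which were not measured in these libraries.

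Totals were 20094647 to 20687289 counts in the control libraries and 19257131 to 20358017 in the ox-LDL libraries. Levels between libraries are given as CPM, in which each count is divided by a TMM-adjusted library size (edgeR), and levels between genes as FPKM, which also divides by gene length. The 8 macrophage markers, scaled by library size, summed to 23170 to 42850 CPM in controls and 13360 to 28380 after ox-LDL, mostly from Lyz2 (20600 to 40920 and 9361 to 26340). Adgre1 (178.8 to 344.5 and 408 to 1961) and Cd14 (77.2 to 105.2 and 199.1 to 693.2) were higher after ox-LDL without overlap. The other macrophage markers, Itgam, Csf1r, Cd68, Mertk, Fcgr1 and Lyz2, overlapped between the groups, as did the sums. The deviation of a library from its group mean varied with gene length. Spearman's rho across genes was −0.66 in ox-LDL replicate 2 and 0.09 to 0.51 elsewhere in that group, and −0.59 and −0.49 in control replicates 1 and 4 and 0.37 to 0.48 in the remaining controls. Since ox-LDL replicate 2 was alone in its group in this, member calls that change without it are given both ways. Because the libraries are bulk RNA, fewer cells with a transcript and less of it per cell cannot be told apart. The labels call the cultures biological replicates without naming the mouse behind each, so p-values measure the spread between these cultures.

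At an adjusted p under 0.01 (edgeR quasi-likelihood test, Benjamini-Hochberg over 12654 genes), 1 of the 9 genes, Acod1, was higher after ox-LDL, against 9.40% of all genes tested, and 1, Idh1, was lower, against 5.35%. For Acod1 and Mdh2 every ox-LDL library lay above every control library (11.6% of all genes), and for Idh1 every one lay below (9.11%). At an adjusted p under 0.05, Mdh2 joined Acod1 (2 higher, against 16.2% of all genes) and Idh1 stayed alone (1 lower, against 10.4%). The median log2 fold change of the 9 was 0.22, with 5 above 0, beside 0.10 over all genes tested. Of the 8 genes other than Acod1, 4 had a higher and 4 a lower fitted level after ox-LDL, and Sdhb, among the 4 higher, changed sign with scaling by library size alone.

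**Figure D1:**
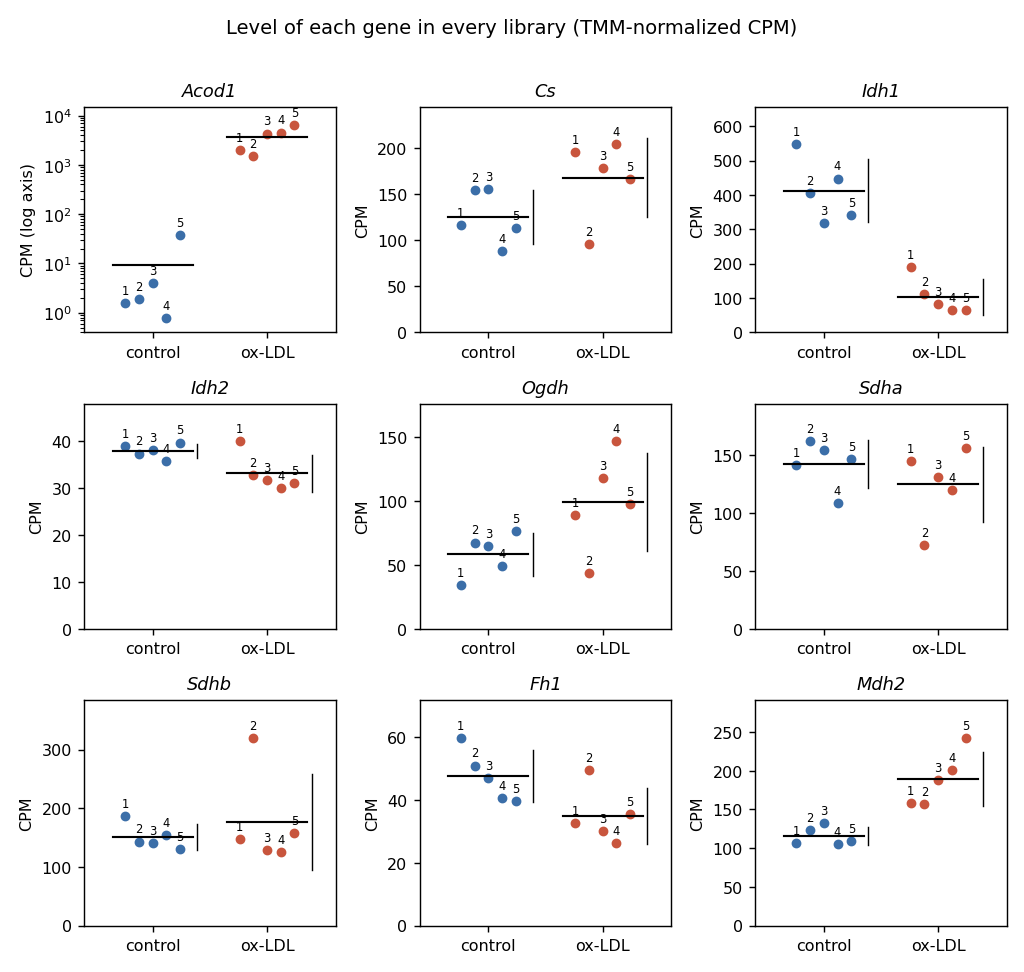
TMM-normalized CPM of each of the 9 genes in every library, with the replicate number beside each point, the mean as a horizontal line and, except for Acod1 on its log axis, the SD as a vertical line (n = 5 per group). Acod1 and Mdh2 lay higher and Idh1 lower in every ox-LDL library, while control replicate 5 stood at 37.3 CPM for Acod1 and ox-LDL replicate 2 at 320.4 CPM for Sdhb.

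Acod1 (NCBI gene 16365) lies on the plus strand at chr14:103446194-103455790 in mm9, where the annotation lists it as Irg1. The 250 bases before its RefSeq start (chr14:103445979-103446228, plus strand, mm9) are shown because this was the member with by far the greatest change, and the capitals mark a TATA box, the letters TATAAA, whose first base lies 28 bases before the start. These bases come from the RefSeq promoter table of GRCm38.p6 and were found unchanged in mm9, where the last of them lie inside the annotated gene, since that annotation starts it further upstream.

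Acod1: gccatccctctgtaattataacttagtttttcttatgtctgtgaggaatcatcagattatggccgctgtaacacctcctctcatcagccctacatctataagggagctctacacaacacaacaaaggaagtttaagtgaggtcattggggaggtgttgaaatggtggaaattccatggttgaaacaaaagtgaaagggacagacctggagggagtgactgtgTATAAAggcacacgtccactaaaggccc

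A TATA box on either strand was found in 12.4% of 32851 such windows and in 1 of the 15 windows of the 9 genes, that of Acod1. None of the other motifs searched was in this window, namely NF-kB, the interferon-stimulated response element, the gamma-activated site TTCNNNGAA, the AP-1 motif TGANTCA, the C/EBP motif TTGCNNAA, the antioxidant response element TGACNNNGC, NRF1, the ETS motif CCGGAAGT and the GC box GGGCGG, all read on both strands. A match describes letters and does not show a site in use. Only exact matches were counted, so a window without a match can still hold a sequence close to the motif.

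In the control libraries 1 to 5 Acod1 stood at 1.55, 1.93, 4.02, 0.773 and 37.3 CPM, from 28, 45, 94, 15 and 858 counts. In the ox-LDL libraries 1 to 5 it stood at 2015, 1509, 4316, 4528 and 6323 CPM. The groups did not overlap, and 4 of the 5 controls were below 5 CPM while control replicate 5 was far above them. Even so, the lowest ox-LDL library was 40.5 times control replicate 5. The mean of 9.11 ± 15.8 CPM in controls compared with 3738 ± 1973 CPM after ox-LDL (SD, n = 5 each), and the log2 fold change was 8.68 (SE 1.26, 95% interval 5.92 to 11.43, adjusted p = 0.000457), which ranked 5 among the 1189 genes higher after ox-LDL. Without control replicate 5 the control mean was 2.07 ± 1.39 CPM (SD, n = 4) and the log2 fold change 10.81 (adjusted p = 2.65e-05), so that the fold went from 409.3 to 1789. The level in control replicate 5 was 0.589% of that in ox-LDL replicate 5 and 0.997% of the ox-LDL mean, and the cause of this level was not tested. Within the ox-LDL group the highest library was 4.19 times the lowest.

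Markers of other cells were at low levels but some moved with the groups. The 6 neutrophil markers measured summed to 6.90 to 16.0 CPM scaled by library size in controls and 13.6 to 90.9 after ox-LDL. These sums overlapped and came nearly all from S100a8, with S100a9 at 0.40 or less. Below 1 CPM, Cxcr2 was lower after ox-LDL without overlap (0.304 to 0.660 and 0 to 0.104). Camp was higher without overlap (0 to 0.0506 and 0.159 to 0.799). Mesothelial and stromal markers summed to 14.5 to 45.2 in controls and 60.3 to 130 after ox-LDL. Most came from Dcn, at 10.8 to 35.8 and 53.1 to 98.0, and Col1a1 stood at 1.23 to 5.26 and 5.12 to 32.9. The mesothelial marker Upk3b went the other way without overlap, at 0.296 to 0.860 and 0 to 0.266. Msln, Wt1 and Col3a1 overlapped. The 5 eosinophil and mast cell markers measured summed to 2.91 to 8.11 in controls and 0.574 to 1.95 after ox-LDL, lower without overlap, with Siglecf at 2.51 to 6.68 and 0.261 to 0.621. The sums of B cell, T cell, dendritic cell and resident macrophage markers overlapped between the groups, each at most 12.0. Some single markers separated without overlap, in both directions. Among resident macrophage markers, Timd4 was higher after ox-LDL (0 to 0.2539 and 0.8988 to 2.284). Icam2 (3.754 to 6.754 and 1.049 to 3.728) and Selp (0.1502 to 1.676 and 0 to 0.1498) were lower. Among dendritic cell markers, Clec9a was higher (0.253 to 0.5506 and 0.8347 to 2.129) and Cd209a lower (0.1502 to 1.93 and 0 to 0.05069). The part of these cells in the results was not tested.

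Per length, Acod1 went from the lowest of the 9 genes in the control mean to the highest after ox-LDL. Its mean was 4.21 ± 7.37 FPKM in controls and 1473 ± 776 FPKM after ox-LDL (SD, n = 5 each). Among 22818 genes with a symbol it ranked between 9038 and 11503 in control replicates 1 to 4 and at 3481 in control replicate 5. After ox-LDL it ranked at 360 in replicate 2 and between 32 and 93 elsewhere. The FPKM of the 8 other genes summed to 587.0 to 737.9 in the controls and 385.4 to 690.7 after ox-LDL. Acod1 was therefore 0.000511 to 0.0270 times that sum in the controls, and 1.41, 0.928, 3.34, 3.45 and 4.29 times it in ox-LDL replicates 1 to 5. It exceeded all 8 together in each ox-LDL library except replicate 2.

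**Figure D2:**
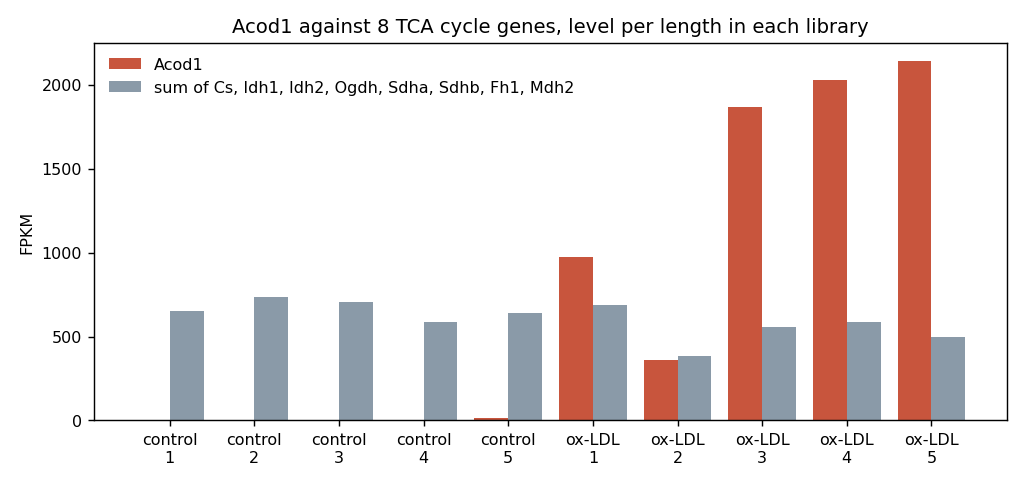
FPKM of Acod1 and the summed FPKM of the 8 other genes in each of the 10 libraries, on a linear axis from 0. Acod1 is barely visible in the controls, where its highest bar is 17.3 FPKM, and stands above the sum in 4 of the 5 ox-LDL libraries.

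Within a library, the ratio of Acod1 to Cs sets the itaconate enzyme against the enzyme that opens the cycle and does not depend on library scaling. The CPM ratio was 0.00879 to 0.330 in the controls and 10.3 to 38.1 after ox-LDL, without overlap. The log2 ratio differed by 9.58 (two-sided exact permutation test over 252 arrangements, p = 0.00794, the smallest this design allows, adjusted p = 0.0159 over the 4 ratios compared).

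Beside Acod1 on the chromosome, Kctd12, a potassium channel tetramerization domain gene that ends 64449 bases before Acod1 (chr14:103377437-103381745, minus strand), fell from a mean of 73.5 to 16.7 CPM. Its controls ranged from 57.4 to 81.2 CPM and its ox-LDL libraries from 6.76 to 25.5 CPM, a log2 fold change of −2.14 (SE 0.32, adjusted p = 0.000572, edgeR). The GENCODE annotation of mm9 lists it as a pseudogene and RefSeq as protein-coding, and a long noncoding gene on the other strand shares its interval.

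Over the 10 libraries the genes whose log2 level correlated most with that of Acod1, among 7475 genes at 10 CPM or more on average after ox-LDL whatever their control level, were Lgals3bp, Skil, Slc49a4, Rsad2 and Gbp5 (Pearson's r 0.988 to 0.990). These values mostly carry the distance between the groups. As for Acod1, control replicate 5 was the highest control for each of these genes. It stood at 132.9 CPM for Lgals3bp, 18.5 for Skil, 33.9 for Slc49a4, 28.6 for Rsad2 and 6.30 for Gbp5. The next highest controls stood at 64.4, 13.2, 27.1, 12.8 and 0.996 CPM in the same order. Choosing genes by correlation over these libraries favours such a likeness, and its cause was not tested. Within the 5 ox-LDL libraries alone r was 0.517 for Lgals3bp, 0.934 for Skil, 0.993 for Slc49a4, 0.71 for Rsad2 and 0.84 for Gbp5.

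Cs (NCBI gene 12974, chr10:127774888-127799535, plus strand) encodes citrate synthase, which brings acetyl-CoA into the cycle. It had 116.3, 154.6, 155.9, 87.9 and 113.1 CPM in the controls and 195.4, 96.4, 178.4, 204.1 and 166.1 CPM after ox-LDL. The highest levels were in ox-LDL libraries, but replicate 2 of that group lay among the controls. The log2 fold change was 0.42 (95% interval −0.11 to 0.95, adjusted p = 0.227), and 0.53 with ox-LDL replicate 2 left out (adjusted p = 0.0363).

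Idh1 (NCBI gene 15926) encodes the cytosolic and peroxisomal NADP-dependent isocitrate dehydrogenase and lies on the minus strand at chr1:65205190-65233053. The 250 bases before its upstream RefSeq start (chr1:65233054-65233303, minus strand, mm9) are shown because it was the only member called lower with all 10 libraries, and the capitals mark both GC boxes, read as CCGCCC on this strand.

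Idh1: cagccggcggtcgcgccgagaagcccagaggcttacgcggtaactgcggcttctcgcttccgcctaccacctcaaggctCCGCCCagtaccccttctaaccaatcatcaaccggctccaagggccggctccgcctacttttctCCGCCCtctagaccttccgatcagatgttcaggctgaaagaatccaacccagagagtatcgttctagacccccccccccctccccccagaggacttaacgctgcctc

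A GC box was found in 32.7% of all windows and in 9 of the 15 windows of the 9 genes, with at least 1 in every gene but Acod1 and Sdha. The NF-kB motif was found in 7.25% of all windows and in 3 of the 15, of Idh2, Ogdh and Sdhb. None of these genes was called at 0.01 with all 10 libraries, and Ogdh was called without ox-LDL replicate 2.

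Idh1 stood at 546.7, 405.8, 318.5, 447.6 and 341.4 CPM in control replicates 1 to 5 and at 189.6, 112.2, 81.7, 65.6 and 64.4 CPM in ox-LDL replicates 1 to 5. Every ox-LDL library was below every control, and ox-LDL replicate 1 was the nearest to them. The mean fell from 412 ± 91.1 to 103 ± 52.3 CPM (SD, n = 5 each). In log2 terms it changed by −2.0 (SE 0.33, 95% interval −2.72 to −1.29, adjusted p = 0.000915), which ranked 243 among the 677 genes lower after ox-LDL. Per length it was the highest of the 9 genes in the control mean, at 204 ± 24.0 FPKM, and stood at 47.4 ± 33.2 FPKM after ox-LDL.

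The mitochondrial isoform Idh2 (NCBI gene 269951, chr7:87239732-87260278, minus strand), which uses the same cofactor, ranged from 35.7 to 39.6 CPM in controls and from 29.9 to 39.9 CPM after ox-LDL. Its log2 fold change was −0.20 (95% interval −0.50 to 0.11, adjusted p = 0.334). The CPM ratio of Idh1 to Idh2, not divided by gene length, lay between 8.38 and 14.1 in controls. After ox-LDL it lay between 2.08 and 4.75, without overlap. The difference in the log2 ratio was −1.90 (exact permutation test, p = 0.00794, adjusted p = 0.0159 over 4 ratios).

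Ogdh (NCBI gene 18293, chr11:6191636-6256645, plus strand) encodes the first component of the 2-oxoglutarate dehydrogenase complex. Its controls held 34.3, 67.6, 65.1, 49.1 and 76.6 CPM and its ox-LDL libraries 89.1, 43.6, 117.8, 146.8 and 97.9 CPM. The 4 ox-LDL libraries other than replicate 2 lay above every control. The log2 fold change was 0.76 (SE 0.31, adjusted p = 0.0928), going to 0.91 when ox-LDL replicate 2 was left out (adjusted p = 0.00853).

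Sdha (NCBI gene 66945, chr13:74459702-74487728, minus strand) and Sdhb (NCBI gene 67680, chr4:140517118-140535108, plus strand) encode the flavoprotein and iron-sulfur subunits of succinate dehydrogenase, the enzyme that itaconate inhibits. Sdha ranged from 108.3 to 162.1 CPM in controls and from 72.4 to 156.0 CPM after ox-LDL, a log2 fold change of −0.19 (95% interval −0.68 to 0.30, adjusted p = 0.573). Sdhb held 186.6, 143.4, 141.2, 153.8 and 130.0 CPM in controls and 148.3, 320.4, 129.5, 126.0 and 157.6 CPM after ox-LDL, where replicate 2 stood alone. Its log2 fold change was 0.22 (95% interval −0.37 to 0.81, adjusted p = 0.589) and −0.15 without that library. The log2 CPM ratio of Sdha to Sdhb was −2.15 in ox-LDL replicate 2 but −0.07 to 0.02 in the remaining libraries of that group, against −0.51 to 0.18 in controls. The groups overlapped (difference −0.36, exact permutation p = 0.675, adjusted p = 0.675). With each library's length trend removed the difference was −0.49 and passed (exact permutation, adjusted p = 0.0106), and leaving out ox-LDL replicate 2 gave 0.06.

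Fh1 (NCBI gene 14194, chr1:177530505-177555766, minus strand) encodes fumarate hydratase. It held 59.7, 50.9, 47.0, 40.4 and 39.6 CPM in controls and 32.7, 49.4, 30.2, 26.1 and 35.4 CPM after ox-LDL. The 4 ox-LDL libraries other than replicate 2 lay below every control. The log2 fold change was −0.45 (SE 0.20, adjusted p = 0.119), and −0.65 without ox-LDL replicate 2 (adjusted p = 0.00798). Fh1 overlaps Kmo on the other strand, and whether the counts used strand is not given in the sources used here.

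Mdh2 (NCBI gene 17448, chr5:136254350-136266268, plus strand) encodes the mitochondrial malate dehydrogenase, which restores oxaloacetate. It held 107.1, 123.5, 132.3, 105.4 and 109.0 CPM in controls and 158.8, 157.5, 187.6, 201.1 and 242.6 CPM after ox-LDL. The groups did not overlap, and the control spread was narrow. The mean was 116 ± 11.9 CPM in controls and 189.5 ± 35.1 CPM after ox-LDL (SD, n = 5 each). The log2 fold change of 0.71 (SE 0.18, 95% interval 0.32 to 1.11) had an adjusted p = 0.0129, just outside the threshold of 0.01, and this was 0.00373 without ox-LDL replicate 2 and 0.00038 in DESeq2. It was above 0.05 in 5 of 23 alternatives, at 0.163 with library size alone, 0.0824 with every gene of at least 1 count, 0.188 and 0.191 in the FPKM fits and 0.0687 without both replicates 5. The cytosolic counterpart Mdh1 had a log2 fold change of −0.47 (SE 0.31, adjusted p = 0.293). The CPM ratio of Mdh1 to Mdh2 was 1.65 to 2.96 in controls and 0.364 to 2.00 after ox-LDL, where only replicate 2 reached the control range. The difference in the log2 ratio was −1.28 (exact permutation p = 0.0238, adjusted p = 0.0317), and it missed 0.05 in 7 of the 10 fits with a library left out, at an adjusted p of 0.0635.

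**Figure D3:**
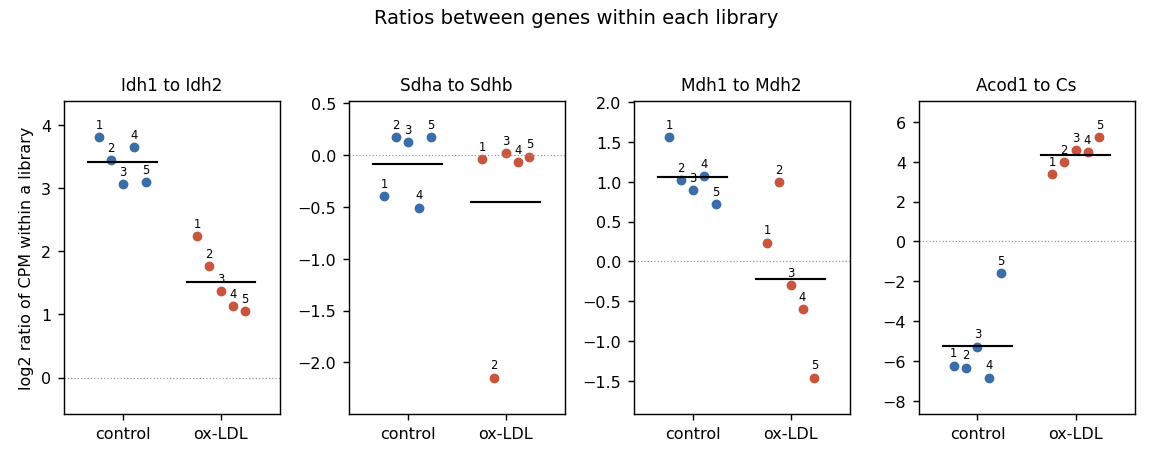
Log2 ratio of CPM within each library for the 4 gene pairs, with replicate numbers beside the points and group means as lines (n = 5 per group). The Idh1 to Idh2 and Acod1 to Cs ratios do not overlap between groups, and ox-LDL replicate 2 stands alone at −2.15 for Sdha to Sdhb.

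Without ox-LDL replicate 2, 3 of the 9 genes were called higher (Acod1, Ogdh and Mdh2) against 13.5% of 12973 genes tested, and 2 lower (Idh1 and Fh1) against 11.6%. Both shares of all genes were also larger than with that library included. Gene length moved with this library, with Sdhb the shortest of the 9 at 930 bases and Ogdh the longest at 4111. A further fit removed each library's length trend and kept every library (edgeR). In it Ogdh (log2 fold change 0.597, adjusted p = 0.0353), Fh1 (−0.396, adjusted p = 0.0337) and Mdh2 (0.885, adjusted p = 0.024) were not called. Sdhb stood at 0.268 (adjusted p = 0.107) in that fit and at −0.147 without ox-LDL replicate 2. The part of gene length in the values without that library was not tested.

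**Figure D4:**
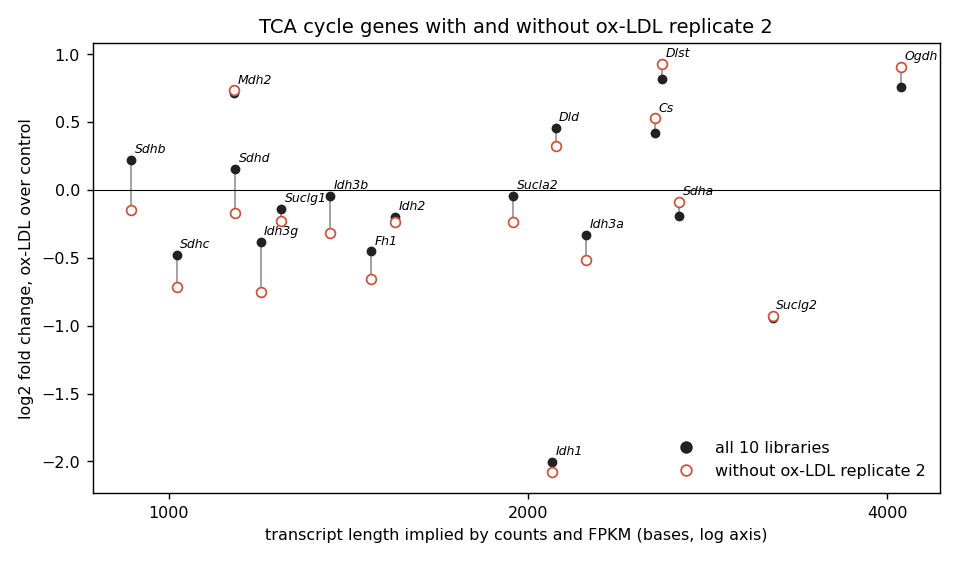
Log2 fold change of 18 of the 19 TCA cycle genes tested against the transcript length implied by counts and FPKM (bases, log axis), with all 10 libraries (filled) and without ox-LDL replicate 2 (open), a line joining each pair. Sdhb goes from 0.22 to −0.15 and Ogdh from 0.76 to 0.91.

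In the controls the order of mean FPKM was Idh1, Sdhb, Mdh2, Sdha, Cs, Fh1, Idh2, Ogdh and Acod1. Neighbours overlapped in range except Sdhb and Mdh2, Mdh2 and Sdha, and Idh2 and Ogdh. After ox-LDL the order was Acod1, Sdhb, Mdh2, Cs, Idh1, Sdha, Ogdh, Fh1 and Idh2, and the only neighbours whose ranges did not overlap were Acod1 and Sdhb. Sdhb and Mdh2 kept the second and the third place, at 164 ± 27.3 and 157 ± 44.3 FPKM after ox-LDL.

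Around these genes, 11 further subunits and enzymes of the cycle were tested. None was called at 0.01, beside 9.40% called higher and 5.35% lower among all genes tested. The median log2 fold change of the 11 was −0.05, with 4 above 0. At 0.05, Dlst, the succinyltransferase of the 2-oxoglutarate dehydrogenase complex, was higher (0.82, SE 0.25, adjusted p = 0.0330), and Suclg2, the GTP-linked succinyl-CoA ligase subunit, was lower (−0.94, SE 0.27, adjusted p = 0.0241). That was 1 higher and 1 lower of the 11, beside 16.2% and 10.4% of all genes tested at 0.05. Dlst missed 0.05 in 13 of 23 alternatives and Suclg2 in 5. Without ox-LDL replicate 2, where 13.5% of all genes tested were called higher and 11.6% lower, Dlst was called higher at 0.01 (0.93, adjusted p = 0.00288). Idh3g, a subunit of the NAD-dependent isocitrate dehydrogenase, was then called lower (−0.75, adjusted p = 0.00529). So was Sdhc, a membrane anchor of succinate dehydrogenase (−0.72, adjusted p = 0.00276). With each library's length trend removed and all 10 libraries kept (edgeR), Dlst (0.81, adjusted p = 0.00926) and Suclg2 (−1.01, adjusted p = 0.00956) were called. Idh3g (−0.34, adjusted p = 0.0358) and Sdhc (−0.39, adjusted p = 0.0537) were not.

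**Figure D5:**
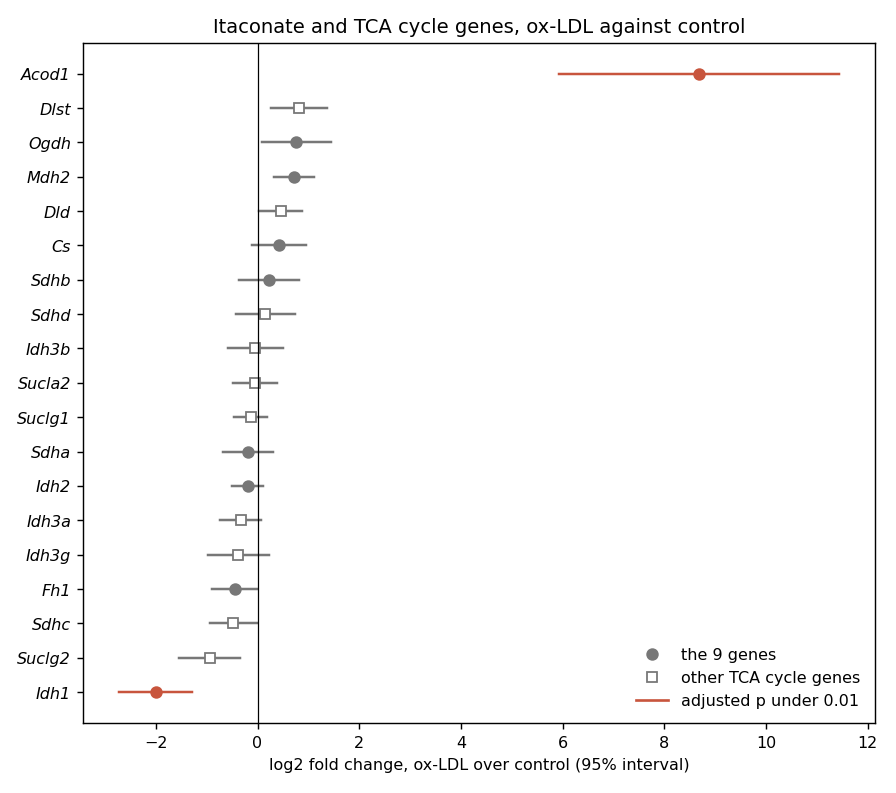
Log2 fold change of ox-LDL over control with its 95% interval for the 9 genes (circles) and 10 of the 11 other TCA cycle genes (squares), from edgeR on 5 libraries per group. Acod1 at 8.68 and Idh1 at −2.0 are the 2 coloured as passing an adjusted p of 0.01.

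Beyond the cycle, 5 of 47 genes tested on all the pathway lists together, the rest of the cycle included, were called higher and 1 lower, beside 9.40% and 5.35% of all genes tested. Of the 8 genes for cytosolic partners and citrate export, 2 were higher. Me1, the cytosolic malic enzyme, was higher, with 0.773 to 2.01 CPM in controls and 4.54 to 12.9 CPM after ox-LDL (log2 fold change 3.09, SE 0.39, adjusted p = 0.0002). Me2, its mitochondrial counterpart, rose from a mean of 31.4 to 54.1 CPM (0.78, SE 0.14, adjusted p = 0.00183), but not with scaling by library size alone (0.63, adjusted p = 0.117).

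Of 12 genes tested for pyruvate entry, 1 was higher, beside 9.40% of all genes tested. Pcx, pyruvate carboxylase, which makes oxaloacetate directly, held 0.206 to 0.599 CPM in controls and 0.771 to 5.80 CPM after ox-LDL (log2 fold change 3.35, SE 0.52, adjusted p = 0.000702). At 0.05, 1 of the 12 was higher and 2 were lower, beside 16.2% and 10.4% of all genes tested. The 2 lower were kinases of pyruvate dehydrogenase, Pdk1 (log2 fold change −1.0, adjusted p = 0.0458) and Pdk2 (−1.29, adjusted p = 0.0420). Of the other kinases listed, Pdk3 did not pass (0.17, adjusted p = 0.646), and Pdk4, at 0.526 CPM or less, was not tested. Pdk1 missed 0.05 in 9 of 23 alternatives and Pdk2 in 7 of 22.

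Of 5 genes for glutamine and aspartate entry, 1 rose and 1 fell, beside 9.40% and 5.35% of all genes tested. Got1, the cytosolic aspartate aminotransferase, was higher, with 26.8 to 44.0 CPM in controls and 51.2 to 75.0 CPM after ox-LDL (0.87, SE 0.19, adjusted p = 0.00459), a call lost in 12 of 23 alternatives. Glud1, which turns glutamate into 2-oxoglutarate, was lower, with 169.6 to 224.5 CPM in controls and 69.7 to 113.5 CPM after ox-LDL (−1.02, SE 0.19, adjusted p = 0.00192), and with scaling by library size alone its adjusted p was 0.0127.

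Among all genes tested 9.40% were called higher and 5.35% lower, and of 7 genes for itaconate breakdown and response Nfkbiz alone was called. It encodes IkBζ, whose induction itaconate derivatives are known to restrain, and it rose from a mean of 3.52 ± 0.63 to 13.9 ± 5.69 CPM (SD, n = 5 each; log2 fold change 1.98, SE 0.30, adjusted p = 0.00055). Nfe2l2, which encodes Nrf2, held 203.2 to 222.5 CPM in controls and 87.8 to 163.1 CPM after ox-LDL, without overlap. Its log2 fold change of −0.77 (SE 0.19, adjusted p = 0.0111) missed 0.01, and it passed without ox-LDL replicate 2 (−0.71, adjusted p = 0.00337). None of the 4 genes for assembly of succinate dehydrogenase passed 0.01 or 0.05, where 16.2% of all genes tested were higher and 10.4% lower at 0.05.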

How the data were processed

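RNA of 5 control and 5 ox-LDL cultures was sequenced on the BGISEQ-500. The submitters' processing notes name HISAT2 2.0.5, SAMtools 1.4, StringTie 1.3.3.13 and FastQC, with mm9. The authors deposited estimated counts per gene (13.6% not whole numbers) and FPKM values, a unit inferred from the files, since counts divided by them gave a near-constant length per gene. How counts were made, and whether strand was used, is not given in the sources used here. From 39488 rows, 9788 circular RNAs were left out. Members and lists were chosen with earlier results of these data known.

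Counts were rounded, filtered with filterByExpr, normalized by TMM (factors 0.593 to 1.19) and tested in edgeR 4.0.16 (R 4.3.3) by the quasi-likelihood test with robust dispersion and Benjamini-Hochberg adjustment over 12654 genes, with a threshold of 0.01. Ratios within libraries used two-sided exact permutation tests. FPKM values were described without a test, except in an alternative. The scripts were tested on simulated data. Genes named were the 9 members, genes of the pathway lists, the nearest measured protein-coding gene beside Acod1 and the 5 genes most correlated with Acod1; some single genes are not reported here. Symbols came from RefSeq (GRCm38.p6) and coordinates from GENCODE on mm9. Alternatives were DESeq2 1.42.0, limma 3.58.1 (voom, and log2(FPKM + 1) and log2(FPKM + 0.1)), other scalings, filters and thresholds, removal of each library's length trend, a replicate block and each library left out.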

Additional observations from a re-analysis of the deposited data

Results flagged for a closer look

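In 66 groups of 5 libraries (a gene or ratio in 1 condition), 12 had a library set apart. Its gap to its nearest neighbour was above 0.71 of the group's whole range. About 3.3 would be expected by chance if the groups were independent. They share the same libraries, so that number is only a rough guide. Control replicate 5 was high for Acod1, at 37.3 CPM against 4.02 in the next library (share of the range 0.911), and low for Idh3a (0.786) and Sucla2 (0.742). ox-LDL replicate 2 was high for Sdhb (320.4 against 157.6 CPM, 0.838), Idh3b (0.736) and Idh3g (158.7 against 73.9 CPM, 0.913). It was low for Glud1 (0.724) and for the Sdha to Sdhb ratio (0.96). ox-LDL replicate 1 was high for Idh2 (39.9 against 32.8 CPM, 0.715) and Suclg2 (0.711). Control replicate 1 was high for Suclg2 (0.804) and Sdhd (0.765). No cause was tested for any of these.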

How the results depend on the processing

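Acod1 (log2 fold change 8.37 to 10.81, adjusted p at most 0.0058) and Idh1 (−2.35 to −1.88, adjusted p at most 0.00388) kept direction and call in all 23 alternatives run for each, as did Nfkbiz. Me1 (21 run) and Pcx (20 run) kept theirs in the alternatives that held them. Both failed the filter of the FPKM fits, and Pcx also that of 10 counts in every library. Their controls were low, at most 2.01 CPM for Me1 and 0.599 for Pcx. Got1 lost its call in 12 of 23, Me2 in 5 and Glud1 in 2, while Nfe2l2 gained one in 7.

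Genes called higher (1189) became 1765 in DESeq2, 1646 with the length trend removed, 704 with library size alone, 2045 at 0.05, 605 with an absolute log2 fold change above 2, 555 and 543 with limma on FPKM + 1 and + 0.1, and 826 to 1755 with a library left out. Genes called lower (677) became 1244 in DESeq2, 1320 at 0.05, 244 with the fold cutoff, 1223 with the length trend removed, and 436 to 1502 with a library left out. With a library left out, both highest counts came without ox-LDL replicate 2, and the 2 lowest counts of genes called lower without control replicate 4 (436) and ox-LDL replicate 3 (437).

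Of the 9 members, 2 were called higher in DESeq2 and at 0.05, and with a library left out 1 to 3 higher and 1 to 2 lower. On the pathway lists, 5 higher became 3 with library size alone, 2 with the fold cutoff, 1 with either FPKM fit, and 4 to 7 with a library left out. The 1 lower became 4 in DESeq2, 2 with voom, upper quartile, 10 counts in every library or without both replicates 5, 0 with library size alone or the fold cutoff, 5 at 0.05, 7 with the length trend removed, 3 with either FPKM fit, and 1 to 6 with a library left out.

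The Sdha to Sdhb ratio passed 0.05 with the length trend removed (difference −0.49, exact permutation, adjusted p = 0.0106). Its difference ran from −0.48 to 0.06 with a library left out, positive only without ox-LDL replicate 2. Mdh1 to Mdh2 missed 0.05 with the length trend removed (−1.34, adjusted p = 0.0556, exact permutation) and ran from −1.58 to −0.97 with a library left out.

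Sign changes without a call were seen for Sdhb (−0.049 with library size alone, −0.06 and −0.061 in the FPKM fits), Idh3b (0.01 with the length trend removed) and Sdhd (−0.006 with upper quartile, −0.112 with library size alone, −0.117 and −0.118 in the FPKM fits). With a library left out the log2 fold change ran from −0.147 to 0.324 for Sdhb and from −0.169 to 0.279 for Sdhd, negative only without ox-LDL replicate 2, from −0.315 to 0.098 for Idh3b and from −0.233 to 0.056 for Sucla2, positive only without ox-LDL replicate 4. The median of all genes moved from 0.10 to −0.09 with library size alone and to −0.14 and −0.18 in the FPKM fits. The cause was not tested, except that the fold cutoff and thresholds act by construction.

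Deviations from the group mean correlated at −0.285 to 0.443 between libraries of the same replicate number. Only control replicate 5 matched the ox-LDL library of its own number best (0.411). Since these deviations vary with gene length, they cannot decide whether replicate numbers pair the libraries. With a replicate block, pathway genes called became 3 higher and 0 lower, and genes called 885 higher and 549 lower. The ratio differences were −1.90 (Idh1 to Idh2), −1.28 (Mdh1 to Mdh2) and 9.58 (Acod1 to Cs), with an exact sign-flip p of 0.0625, the smallest it can give, so none could pass.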
